A study of Homo sapiens with 6 samples.

Results

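The genes described here encode enzymes that write or erase chemical marks on histones and DNA. They were chosen by symbol, as the rows of the deposited table named KDM, KMT, SETD, HDAC, SIRT or PRMT with a number, SETDB, EZH1, EZH2, DNMT1, DNMT3 and TET1 to TET3, leaving out symbols with a hyphen. The rule picked 69 of the 22258 symbols listed, of which 67 are enzyme genes and 2, EZH2P1 and HDAC1P2, are pseudogenes. Of these, 66 averaged 0.688 RPM or more over the 6 samples and passed the filter on low values, as did 15496 genes of the whole table, and these were tested. RPM is the read count scaled to a fixed sequencing depth. SIRT4, a mitochondrial sirtuin, had 0.855, 0.442 and 0.535 RPM in the knockdown samples, against 0.735, 0.759 and 0.680 RPM in the control samples, and with the pseudogenes it lay below that mean.

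Histone lysines carry acetyl and methyl groups that are set by transferases and removed by deacetylases and demethylases, and the outcome depends on the residue. H3K4 methylation marks active promoters and enhancers, while H3K27 methylation by Polycomb repressive complex 2 (PRC2) and H3K9 methylation are associated with silent chromatin. DNA methyltransferases set 5-methylcytosine and TET dioxygenases oxidise it, and silencing of CpG island promoters by DNA methylation is a common feature of colon cancer. Arginine methyltransferases modify histones as well as splicing, ribosomal and RNA-binding proteins.

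RNA was sequenced from SW480, an established human colon cancer cell line with truncated APC. The series holds 3 samples with the genotype ALDH1B1 KD, a knockdown of the mitochondrial aldehyde dehydrogenase ALDH1B1, and they were compared with 3 control samples titled SCR and given the genotype WT. Both groups carry replicate numbers 4, 5 and 6, and no treatment is recorded in either. The means of knockdown is not given in the sources used here, nor is whether a group came from 1 clone or from separate cultures. The p-values thus reflect the spread among the 6 samples alone, and that spread may be technical. Every adjusted p below comes from limma over all 15496 genes with Benjamini-Hochberg adjustment, and a gene is said to have risen or fallen where it was under 0.05.

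ALDH1B1 itself had 19.99, 20.4 and 23.2 RPM in the knockdown samples, against 34.1, 39.6 and 36.8 RPM in the control samples, a log2 fold change of -0.80 (SE 0.0926, limma adjusted p 2.37e-07). The depth read from the values ran from 20330000 to 26130000 reads in the knockdown samples and from 21060000 to 28550000 reads in the control samples. The level of 3 reads was 0.105 to 0.148 RPM, and each tested enzyme gene had at least 19.97 reads in every sample. The epithelial keratins KRT8, KRT18 and KRT19 averaged 2743, 2131 and 811 RPM in the knockdown samples and 2702, 1881 and 786 RPM in the control samples and were not called. Of the 7 colon epithelium markers tested, CDH1 (log2 fold change 1.98), VIL1 (1.90) and EPCAM (0.90) rose and CDX2 (-0.76) fell. The summed markers of fibroblasts (5.37 to 7.03 against 4.18 to 5.74 RPM), leukocytes (2.32 to 2.74 against 1.67 to 2.11 RPM) and endothelium (0.497 to 0.688 against 0.425 to 0.617 RPM) were low in knockdown and control samples alike, over the 3 of 7, 4 of 6 and 1 of 4 markers in the table. The leukocyte sums did not overlap between groups, but their members went different ways. CD68, the one tested, averaged 0.311 RPM after knockdown and 1.17 RPM in controls and fell (-1.93), while HLA-DRA, below the filter, averaged 1.16 RPM after knockdown and 0.147 RPM in controls. The part of these markers in the enzyme values was not tested. These are bulk RNA values, so fewer cells expressing a gene and less of its RNA per cell cannot be told apart.

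Of the 66 enzyme genes tested, 24 changed, with 12 that rose and 12 that fell. That is 36.4% of them, against 41.8% of all genes tested, of which 22.6% rose and 19.2% fell. The changes were mostly of modest size. The median log2 fold change was -0.03 over the enzyme genes and 0.00067 over all genes, and the median size among called genes was 0.48 for the enzymes and 0.46 for all genes. Only HDAC11, which rose, and HDAC9, which fell, passed a log2 change of 1. The groups did not overlap for 29 of the 66 enzyme genes, against 51% of all genes tested.

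**Figure D1:**
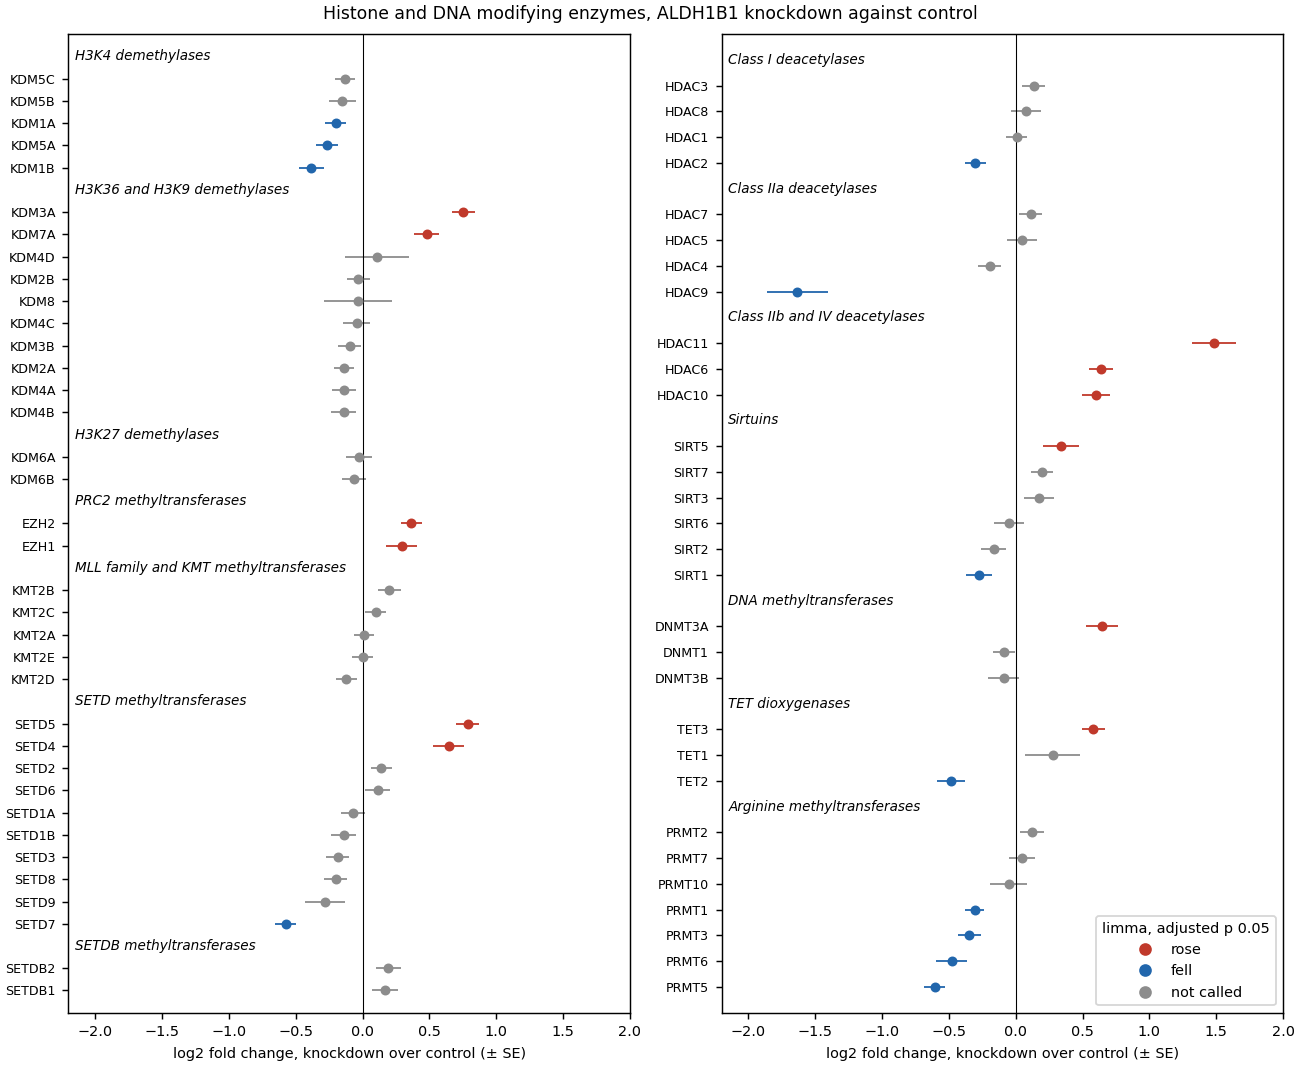
Log2 fold change of knockdown over control with its standard error for the 66 enzyme genes tested, grouped by role; red points rose, blue points fell and grey points were not called. HDAC11 stands farthest to the right at 1.49 and HDAC9 farthest to the left at -1.63, and the MLL family, the H3K27 demethylases and the SETDB genes hold no coloured point.

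Among the histone deacetylases, all 3 genes of classes IIb and IV, which are grouped here, rose, while 22.6% of all genes tested rose. One of them, HDAC11, lies in a stretch of chromosome 3 where 35 of its 40 nearest tested genes rose. HDAC11 is the sole class IV deacetylase and also removes long fatty acyl groups from lysine. It had 8.41, 7.22 and 7.91 RPM in the knockdown samples, against 3.57, 2.66 and 2.30 RPM in the control samples. Every knockdown sample lay above every control sample, and the means were 7.85 ± 0.595 and 2.84 ± 0.654 RPM (SD, n = 3 each). The log2 fold change was 1.49 (SE 0.165, adjusted p 1.13e-07), the largest rise among the enzyme genes.

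HDAC6 is a cytoplasmic class IIb enzyme that deacetylates tubulin. Its values were 50.0, 53.3 and 58.7 RPM in the knockdown samples and 37.7, 36.2 and 30.3 RPM in the control samples, a log2 change of 0.64 (SE 0.0919, adjusted p 5.02e-06). The groups did not overlap. HDAC10, the other class IIb gene and a polyamine deacetylase, had 23.4, 22.9 and 28.1 RPM after knockdown, against 16.5, 18.4 and 14.2 RPM in control cells. It rose by 0.60 on the log2 scale (SE 0.108, adjusted p 8.17e-05), again without overlap. In the table HDAC10 runs from 50683612 to 50689835, and most of it, 5957 bases, is shared with MAPK12 on the same strand. MAPK12 averaged 43.8 RPM over the 6 samples, against 20.6 RPM for HDAC10, and was not called (log2 fold change 0.12). How reads in the shared bases were counted is not given.

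The class IIa deacetylases act largely as co-repressors of MEF2 factors, and 1 of 4 changed. HDAC9 had 0.950, 1.23 and 0.917 RPM in the knockdown samples, against 2.97, 3.37 and 3.19 RPM in the control samples. The knockdown values were close to 1 RPM and all lay below the controls, with means of 1.03 ± 0.171 and 3.18 ± 0.197 RPM (SD, n = 3 each). The log2 fold change was -1.63 (SE 0.228, adjusted p 3.25e-06). These levels correspond to between 19.97 and 84.9 reads, so the counts behind the change are low. HDAC7, which had the most reads of the class, had 87.8, 84.5 and 94.9 RPM after knockdown and 85.7, 90.4 and 72.0 RPM in controls. Its groups overlapped and it was not called (log2 fold change 0.11, adjusted p 0.304). HDAC4 (-0.20) and HDAC5 (0.05) were not called either.

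Class I deacetylases include the nuclear catalytic subunits of the NuRD, SIN3, CoREST and NCoR complexes. Of the 4 class I genes, HDAC2 was the only one that changed. It had 85.4, 71.9 and 78.6 RPM in the knockdown samples, against 93.4, 100.6 and 96.5 RPM in the control samples. All knockdown values lay below all control values, and the log2 change was -0.30 (SE 0.0791, adjusted p 0.00324). Its close paralogue HDAC1 had 79.5, 72.3 and 84.8 RPM after knockdown, against 79.7, 81.8 and 73.5 RPM in controls. The HDAC1 groups overlapped, with a log2 fold change of 0.01 (adjusted p 0.948). HDAC3 (0.14) and HDAC8 (0.08) were not called.

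Of the 6 sirtuins tested, which use NAD to deacylate proteins, 1 rose and 1 fell. SIRT1, a nuclear deacetylase, had 19.4, 16.2 and 19.0 RPM in the knockdown samples, against 21.8, 22.01 and 22.01 RPM in the control samples. The groups did not overlap and the log2 change was -0.27 (adjusted p 0.0259), but the adjusted p was 0.182 without knockdown replicate 5, 0.0589 without control replicate 4 and 0.0619 without control replicate 5. SIRT5, a mitochondrial desuccinylase, rose by 0.34 on the log2 scale (adjusted p 0.0423), although its lowest knockdown value, 7.96 RPM, lay under the highest control value, 8.04 RPM. Its adjusted p was 0.149 and 0.132 without knockdown replicates 4 and 6, and 0.154 without control replicate 6. SIRT7, a nucleolar sirtuin and the one with the most reads, had 42.5, 40.7 and 44.3 RPM after knockdown and 37.6, 38.5 and 35.2 RPM in controls. Those values did not overlap, but the log2 fold change of 0.20 was not called (adjusted p 0.0586), and the gene shares 3055 bases with MAFG on the same strand. SIRT2 (-0.17), SIRT3 (0.17) and SIRT6 (-0.05) were not called.

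**Figure D2:**
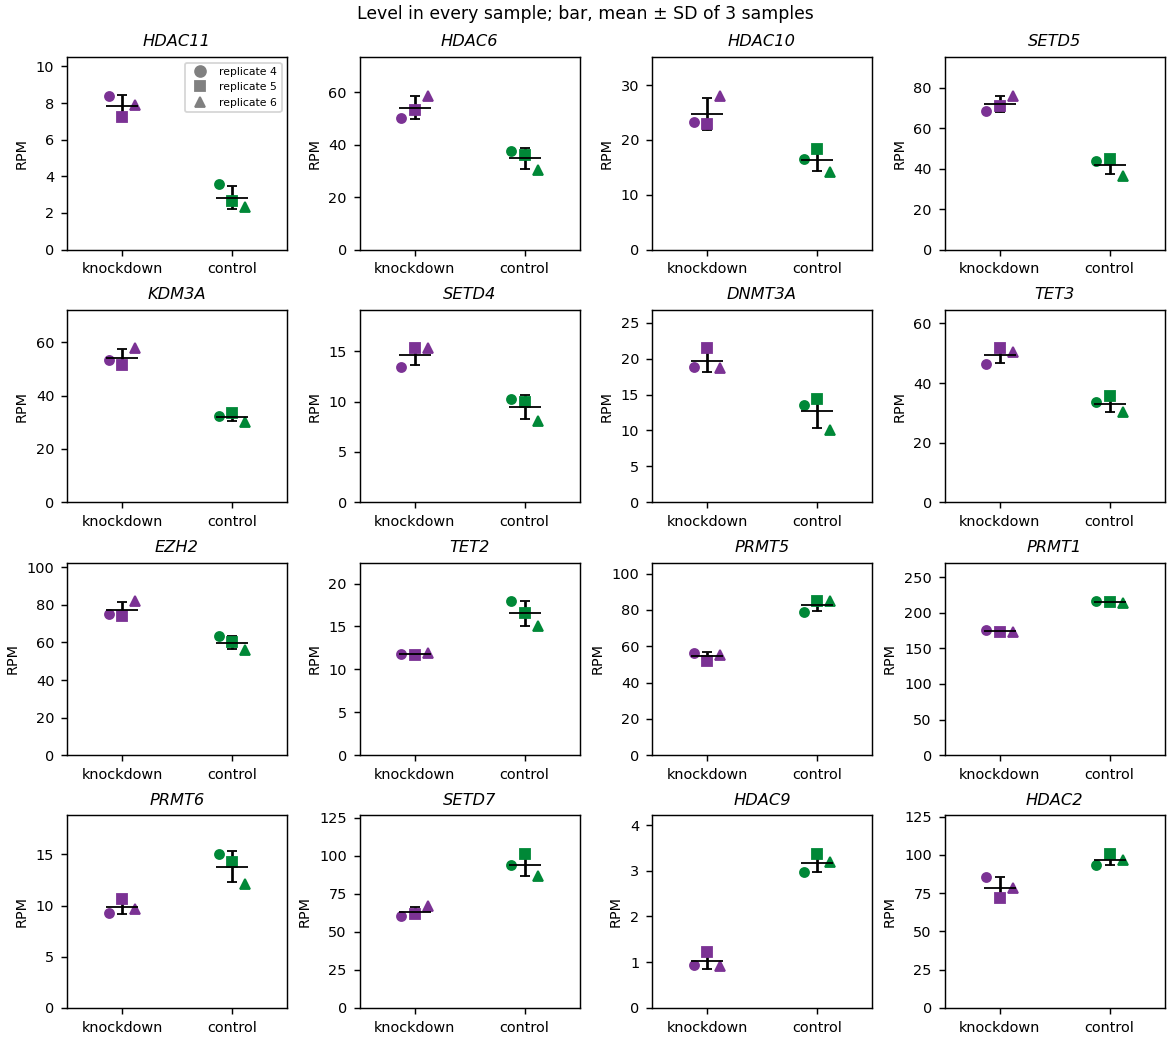
Level in RPM of 16 enzyme genes in each knockdown sample (purple, left) and each control sample (green, right), with the mean and SD of 3 samples as a bar; each axis starts at 0. The symbols mark the replicate number, and in none of the 16 panels do the groups overlap.

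The methyltransferases of PRC2 both rose. EZH2, the main catalytic subunit in dividing cells, had 75.2, 74.0 and 82.0 RPM in the knockdown samples, against 63.3, 60.4 and 56.0 RPM in the control samples. All knockdown values were above all control values, with means of 77.1 ± 4.29 and 59.9 ± 3.63 RPM (SD, n = 3 each). The log2 fold change was 0.36 (SE 0.0793, adjusted p 6.45e-04). EZH1, the paralogue that prevails in resting tissue, had 23.7, 29.1 and 28.5 RPM after knockdown, against 25.0, 24.4 and 17.5 RPM in controls. The EZH1 groups overlapped, and its log2 change of 0.29 stood just inside the threshold (adjusted p 0.0452). Its adjusted p was 0.200 and 0.0987 without knockdown replicates 5 and 6, and 0.279 without control replicate 6. Scaled by exon length, EZH2 averaged 15.1 and EZH1 3.53 RPM per kb over the 6 samples, so EZH2 was the more abundant transcript.

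The other subunits of PRC2 did not rise. Of 9 core and accessory subunits tested, 1 fell and none rose. The one that fell was JARID2, which helps to recruit the complex, at 13.7, 14.4 and 15.4 RPM in the knockdown samples, against 21.6, 23.4 and 20.6 RPM in the control samples (log2 fold change -0.59, adjusted p 3.49e-05). EED (-0.05) and SUZ12 (-0.14), the core partners of EZH2, were not called. The H3K27 demethylases KDM6A and KDM6B, which remove the PRC2 mark, were not called. KDM6B had 38.7, 44.7 and 45.4 RPM after knockdown, against 41.9, 50.3 and 42.5 RPM in controls, and the groups overlapped (log2 fold change -0.06, adjusted p 0.599).

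The H3K4 demethylases were lower or not called, with 3 of 5 that fell, while 19.2% of all genes tested fell. KDM1B, a flavin-dependent demethylase of gene bodies, had 16.6, 18.5 and 17.2 RPM in the knockdown samples, against 23.7, 23.4 and 21.2 RPM in the control samples. The groups did not overlap, and the log2 change was -0.38 (SE 0.0955, adjusted p 0.00229). KDM1A, the demethylase of the CoREST complex, had 65.3, 67.5 and 71.5 RPM after knockdown, against 77.8, 81.9 and 75.3 RPM in controls. It fell by 0.20 on the log2 scale (adjusted p 0.0373) without overlap, with an adjusted p of 0.138 and 0.108 without knockdown replicates 4 and 5, and of 0.0923 and 0.145 without control replicates 4 and 5. KDM5A, a JmjC demethylase, fell by 0.27 (adjusted p 0.0106). Without knockdown replicate 4 its adjusted p was 0.0634, and without control replicate 5 it was 0.0830. KDM5C, the X-linked gene of the group and the one with the most reads, had 113.1, 118.1 and 128.7 RPM after knockdown, against 130.9, 140.5 and 122.9 RPM in controls. Its groups overlapped and its log2 fold change of -0.13 was not called (adjusted p 0.178), nor was that of KDM5B (-0.15).

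The MLL family, which sets the same mark, was not called on the deposited scale. None of its 5 KMT2 genes, large methyltransferases of H3K4 together with KMT2E, which lacks clear catalytic activity, passed the test. KMT2D, which had the most reads among them, had 180.5, 193.4 and 216.2 RPM in the knockdown samples, against 211.9, 224.6 and 203.5 RPM in the control samples. The groups overlapped and the log2 fold change was -0.12 (adjusted p 0.225), within the range of -0.12 to 0.20 over the 5 genes. The upper end was KMT2B (adjusted p 0.0659), which was called as a rise with median-of-ratios, TMM or quantile scaling. It was also called with scaling to listed genes without mitochondrially encoded genes. Of 12 other subunits of the MLL and COMPASS complexes, 1 rose and 5 fell, and the falls included HCFC1 (-0.35), RBBP5 (-0.36) and WDR82 (-0.31).

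Of the 10 demethylases of H3K36 and H3K9, 2 rose and none fell. KDM3A, an H3K9 demethylase known as a hypoxia target, had 53.3, 51.6 and 57.7 RPM in the knockdown samples, against 32.5, 33.5 and 30.2 RPM in the control samples. The ranges stood well apart, with means of 54.2 ± 3.14 and 32.1 ± 1.68 RPM (SD, n = 3 each). The log2 fold change was 0.76 (SE 0.0834, adjusted p 1.08e-07). KDM7A, which removes dimethyl groups from H3K9 and H3K27, had 41.7, 45.4 and 51.1 RPM after knockdown, against 35.7, 34.1 and 29.3 RPM in controls. It rose by 0.48 (SE 0.0936, adjusted p 2.12e-04) without overlap. KDM2A, an H3K36 demethylase that binds unmethylated CpG islands, had the most reads of the group, with 137.7, 150.1 and 155.8 RPM after knockdown and 163.6, 170.8 and 153.5 RPM in controls. Its groups overlapped and it was not called (log2 fold change -0.14, adjusted p 0.149). The remaining 7, KDM2B, KDM3B, the 4 KDM4 genes and KDM8, had log2 fold changes of -0.14 to 0.11 and were not called.

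Of the 10 SETD genes, which share the catalytic SET domain of lysine methyltransferases, 2 rose and 1 fell. SETD5 had 68.3, 71.2 and 76.2 RPM in the knockdown samples, against 44.1, 44.8 and 36.6 RPM in the control samples. Every knockdown value exceeded every control value, and the log2 change was 0.79 (SE 0.0869, adjusted p 1.09e-07), second to that of HDAC11. It overlaps the antisense gene SETD5-AS1, which rose by 0.80, and no source used here says whether counting used the strand. SETD4 had 13.4, 15.3 and 15.3 RPM after knockdown, against 10.3, 9.96 and 8.07 RPM in controls, without overlap, and it rose by 0.64 (SE 0.117, adjusted p 9.35e-05). It overlaps CBR1 on the other strand, a gene with more reads that rose by 0.23. SETD7, which monomethylates H3K4 and many non-histone proteins, had 60.6, 62.0 and 66.9 RPM after knockdown, against 94.1, 101.3 and 87.0 RPM in controls. It fell by 0.57 on the log2 scale (SE 0.0795, adjusted p 3.03e-06) without overlap. SETD2, which sets trimethyl marks on H3K36, was not called (0.14), nor was SETD8, the H4K20 monomethyltransferase now named KMT5A (-0.20). The remaining 5, SETD1A, SETD1B, SETD3, SETD6 and SETD9, had log2 fold changes of -0.28 to 0.11 and were not called.

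The SETDB genes encode H3K9 methyltransferases, and neither was called. SETDB2 had 29.4, 30.1 and 28.9 RPM in the knockdown samples, against 27.7, 27.1 and 22.9 RPM in the control samples. The groups did not overlap, yet the log2 fold change of 0.19 had an adjusted p of 0.0975. The corresponding values for SETDB1 were 0.17 and 0.163. Of 15 other genes of H3K9 methylation and heterochromatin, 3 rose and 5 fell. CBX5, the heterochromatin protein HP1 alpha, fell (-0.41), as did ATF7IP (-0.30), which stabilises SETDB1. TASOR of the HUSH silencing complex, on chromosome 3, rose (0.28).

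Among the DNA methyltransferases, DNMT3A rose and the other two were not called. DNMT3A, a de novo methyltransferase, had 18.9, 21.4 and 18.7 RPM in the knockdown samples, against 13.5, 14.4 and 10.1 RPM in the control samples. All knockdown values lay above all control values, with means of 19.6 ± 1.54 and 12.7 ± 2.28 RPM (SD, n = 3 each), and the log2 change was 0.65 (SE 0.119, adjusted p 1.06e-04). DNMT3B, the second de novo enzyme, had 12.8, 15.1 and 14.5 RPM after knockdown, against 17.0, 15.8 and 12.5 RPM in controls. The groups overlapped (log2 fold change -0.09, adjusted p 0.553). DNMT1, which copies methylation onto newly replicated DNA, had 125.4, 125.8 and 145.5 RPM after knockdown, against 146.6, 149.8 and 126.2 RPM in controls, again with overlap (log2 fold change -0.09, adjusted p 0.393). Per exon length, DNMT1 averaged 13.9, DNMT3B 3.16 and DNMT3A 1.34 RPM per kb over the 6 samples. Without that scaling DNMT3A averaged 16.2 and DNMT3B 14.6 RPM. The order of DNMT3A and DNMT3B thus rests on the exon lengths used, 12020 and 4630 bases.

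The genes around DNA methylation were mostly lower or not called. Of 18 readers and demethylation genes tested, 1 rose and 8 fell. ZBTB38, a zinc finger reader of methylated DNA, fell by 0.52, and TDG and APEX1, which act in the base excision step of active demethylation, fell by 0.55 and 0.42. UHRF1, which brings DNMT1 to replicating DNA, fell by 0.19 with an adjusted p of 0.0495. DNMT1, UHRF1 and EZH2 are known to be higher in cycling cells, and here UHRF1 fell, DNMT1 was not called and EZH2 rose (0.36). Of 24 genes of G1/S and DNA replication, 13 fell and 1 rose, while 19.2% of all genes tested fell and 22.6% rose. The part of the cell cycle in the values of the enzymes was not tested.

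The TET genes, which begin DNA demethylation, moved in opposite directions. TET3 had 46.5, 51.6 and 50.4 RPM in the knockdown samples, against 33.7, 35.6 and 30.2 RPM in the control samples, without overlap. It rose by 0.58 on the log2 scale (SE 0.0863, adjusted p 7.62e-06). TET2 had 11.8, 11.7 and 11.8 RPM after knockdown, against 17.9, 16.6 and 15.0 RPM in controls. The 3 knockdown values were nearly identical and lay below all controls, and the log2 change was -0.48 (SE 0.105, adjusted p 5.97e-04). TET1 had 2.71, 2.997 and 2.90 RPM after knockdown, against 2.80, 2.66 and 1.78 RPM in controls. Its groups overlapped and it was not called (0.28, adjusted p 0.287). Per exon length the order was TET3 at 3.37, TET2 at 0.858 and TET1 at 0.284 RPM per kb over the 6 samples.

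Because TET3 and TET2 went opposite ways, the 250 bases before their RefSeq gene starts are shown for comparison, from the GRCh38.p14 build and written 5′ to 3′. TET3 is at chr2:73984660-73984909 on the plus strand, and TET2 at chr4:105145625-105145874 on the plus strand. Capitals mark CACGTG, the E-box read by MYC and other basic helix-loop-helix factors, which has the same letters on both strands, and CCAAT or its reverse complement ATTGG.
TET3: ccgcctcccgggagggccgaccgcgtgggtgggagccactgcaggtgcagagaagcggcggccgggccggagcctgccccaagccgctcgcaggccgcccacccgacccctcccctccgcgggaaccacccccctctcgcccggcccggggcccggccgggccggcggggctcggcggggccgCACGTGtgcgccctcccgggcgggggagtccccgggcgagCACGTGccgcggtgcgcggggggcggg
TET2: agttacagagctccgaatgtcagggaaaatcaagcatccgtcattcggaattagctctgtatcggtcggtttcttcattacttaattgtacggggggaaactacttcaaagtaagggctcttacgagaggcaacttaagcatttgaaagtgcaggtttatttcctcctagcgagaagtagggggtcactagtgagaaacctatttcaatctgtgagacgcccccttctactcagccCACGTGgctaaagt
The TET3 window holds 2 E-boxes and 37 CpG dinucleotides, and the TET2 window 1 E-box and 10 CpG dinucleotides, with no CCAAT in either. An E-box occurs in 6.33% of the 27305 promoter windows of this length, and the median window has 10 CpG dinucleotides. A match is a description of the letters and does not show that a factor binds.

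The arginine methyltransferases with a PRMT symbol had 4 falls among 7 genes tested and no rise, while 19.2% of all genes tested fell. CARM1, an arginine methyltransferase outside the symbols chosen here, was not called (log2 fold change -0.01, adjusted p 0.911). PRMT5, the main enzyme of symmetric dimethylation, had 56.4, 51.7 and 55.3 RPM in the knockdown samples, against 79.0, 84.8 and 84.8 RPM in the control samples. The ranges were far apart, with means of 54.5 ± 2.49 and 82.9 ± 3.39 RPM (SD, n = 3 each). The log2 change was -0.61 (SE 0.0773, adjusted p 9.49e-07). PRMT5-AS1, on the other strand over 6387 bases of it, averaged 0.768 RPM over the 6 samples and was not called. PRMT6, which methylates H3R2 asymmetrically, had 9.31, 10.7 and 9.67 RPM after knockdown, against 15.0, 14.3 and 12.1 RPM in controls. It fell by 0.48 (SE 0.114, adjusted p 0.00154) without overlap.

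PRMT3, a cytoplasmic enzyme that methylates a protein of the small ribosomal subunit, had 29.4, 29.1 and 31.1 RPM in the knockdown samples, against 37.8, 38.1 and 38.0 RPM in the control samples. The log2 change was -0.35 (SE 0.0830, adjusted p 0.00158), with no overlap. PRMT1, which makes most asymmetric dimethylarginine, had 175.2, 172.7 and 173.5 RPM after knockdown, against 216.4, 215.4 and 213.1 RPM in controls. The values within each group were close, with means of 173.8 ± 1.29 and 215.0 ± 1.67 RPM (SD, n = 3 each). PRMT1 fell by 0.31 on the log2 scale (SE 0.0703, adjusted p 0.00105). It was the most abundant enzyme gene per exon length, at 40.5 RPM per kb over the 6 samples, ahead of HDAC1 and PRMT5 at 19.8 RPM per kb each. PRMT2 (0.12), PRMT7 (0.05) and PRMT10 (-0.05) were not called.

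Partners of these enzymes were tested as well. Of 8 arginine methylation partners, 4 fell and 1 rose. WDR77, the obligate partner of PRMT5 in the methylosome, had 31.5, 31.1 and 34.7 RPM in the knockdown samples, against 41.8, 44.0 and 41.1 RPM in the control samples (log2 fold change -0.38, adjusted p 6.84e-04). The PRMT5 adaptor RIOK1 fell by 0.36 (adjusted p 0.00833), whereas the adaptor CLNS1A was not called (-0.15, adjusted p 0.120). BTG1, an activator of PRMT1, fell by 0.87.

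The promoter windows of the 4 genes that fell in this family are shown because they fell together, again 250 bases before the RefSeq start in GRCh38.p14, 5′ to 3′, with the same capitals. PRMT1 is at chr19:49677021-49677270 on the plus strand, PRMT3 at chr11:20387466-20387715 on the plus strand, PRMT5 at chr14:22929377-22929626 on the minus strand and PRMT6 at chr1:107056424-107056673 on the plus strand.
PRMT1: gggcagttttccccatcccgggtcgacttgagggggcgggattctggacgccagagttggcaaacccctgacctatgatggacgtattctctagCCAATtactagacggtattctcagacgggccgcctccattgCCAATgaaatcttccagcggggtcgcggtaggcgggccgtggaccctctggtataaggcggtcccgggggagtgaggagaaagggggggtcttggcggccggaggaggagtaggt
PRMT3: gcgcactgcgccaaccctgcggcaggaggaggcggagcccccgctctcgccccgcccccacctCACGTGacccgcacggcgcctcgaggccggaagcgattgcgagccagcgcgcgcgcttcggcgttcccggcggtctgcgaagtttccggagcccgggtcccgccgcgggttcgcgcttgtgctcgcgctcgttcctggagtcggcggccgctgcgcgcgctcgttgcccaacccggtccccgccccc
PRMT5: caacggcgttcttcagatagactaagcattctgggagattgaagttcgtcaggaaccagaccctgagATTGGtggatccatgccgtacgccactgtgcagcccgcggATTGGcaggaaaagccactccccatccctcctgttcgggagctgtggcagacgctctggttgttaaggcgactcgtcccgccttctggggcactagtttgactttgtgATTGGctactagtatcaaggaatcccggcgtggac
PRMT6: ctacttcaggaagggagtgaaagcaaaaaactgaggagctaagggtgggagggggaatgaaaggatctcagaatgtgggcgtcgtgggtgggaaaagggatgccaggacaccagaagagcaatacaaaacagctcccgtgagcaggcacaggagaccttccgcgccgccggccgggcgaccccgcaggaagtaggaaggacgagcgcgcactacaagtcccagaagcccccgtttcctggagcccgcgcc
PRMT1 holds 2 CCAAT motifs and PRMT5 holds 3, all 3 as ATTGG, while PRMT3 holds 1 E-box and PRMT6 neither motif. CCAAT on either strand occurs in 32.9% of all windows. Over the enzyme genes, 64 of 69 matched a RefSeq window, and 10 of these held an E-box, 1 of the 12 that rose and 3 of the 12 that fell. CCAAT stood in 18 of 64, in 3 of 12 that rose and 2 of 12 that fell. The GC box GGGCGG, on either strand, stood in 43 of 64, in 12 of 12 that rose and 7 of 12 that fell, against 41.6% of all windows. The enzyme windows had a median of 23.5 CpG dinucleotides against 10 over all windows. All windows here means 27305 RefSeq symbols, whether or not their genes passed the filter on low values. These shares and medians thus do not show a trait particular to the enzymes among expressed genes.

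Several of the rising enzymes lie in 3 stretches where most genes rose, namely chromosome 2 from 0 to 130 Mb, chromosome 3 from 0 to 70 Mb and chromosome 7 beyond 120 Mb in the positions of the table. The stretches hold 9 tested enzyme genes, of which 7 rose and none fell (KDM3A, DNMT3A and TET3 on chromosome 2, SETD5 and HDAC11 on chromosome 3, KDM7A and EZH2 on chromosome 7). Their median log2 fold change was 0.58. Of the 1166 other tested genes there, 66.3% rose and the median log2 fold change was 0.43. Outside the stretches, 5 of 57 enzyme genes rose and 12 fell, a share of 8.77% that rose, against 19.1% of the 14264 other genes. The stretches were known from earlier results of these data, so these shares are a description.

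Each enzyme gene was therefore also compared with its nearest tested genes on the chromosome, 40 of them except near chromosome ends, where KDM5A had 22, SETD5 34, SIRT3 23 and PRMT2 20. The neighbours of SETD5 had a median log2 fold change of 0.74, close to its own 0.79. For HDAC11 the median was 0.69, and 35 of its 40 neighbours rose. The medians were 0.49 for DNMT3A and KDM3A, 0.48 for EZH2, 0.45 for TET3, 0.43 for KDM7A and 0.38 for SETD4. The other rises had lower neighbour medians, of 0.23 for HDAC6, 0.10 for HDAC10, -0.05 for EZH1 and -0.28 for SIRT5. The neighbours of the 12 genes that fell had medians between -0.16 and 0.09, such as 0.05 for PRMT1, 0.08 for PRMT5, 0.09 for PRMT6 and HDAC9 and -0.13 for SETD7 and TET2.

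A second comparison subtracted the median log2 value of those neighbours in each sample. That median is a level, set by the gene or genes in the middle of the neighbours' range, and not the median change given above. By it, 24 of 66 enzyme genes were called, 8 higher and 16 lower, or 36.4% against 41.8% of all genes treated alike. Of all genes, 18.9% were higher and 22.9% lower on that scale. Of the 12 that rose as deposited, 5 remained higher than their neighbours. They were HDAC11, with a relative log2 change of 0.82 (adjusted p 0.00167), HDAC6 at 0.57, SIRT5 at 0.58, HDAC10 at 0.39 and KDM3A at 0.21. The relative changes of SETD5 (0.08), DNMT3A (0.10), TET3 (0.17), KDM7A (0.14), SETD4 (0.13) and EZH1 (0.16) were not called. EZH2 was lower relative to that level (-0.49, adjusted p 7.62e-05), although its own change of 0.36 was near the median change of its neighbours, 0.48. Of the 12 that fell, 7 remained lower than their neighbours, namely HDAC9 (-1.74), PRMT5 (-0.75), SETD7 (-0.69), PRMT6 (-0.55), PRMT1 (-0.52), KDM1B (-0.36) and SIRT1 (-0.24). Of the genes not called as deposited, 8 were lower and 3 higher on this scale. The lower ones were KDM5C (-0.68, adjusted p 2.14e-05), KDM6A (-0.37), KMT2C (-0.33), SIRT2 (-0.32), HDAC4 (-0.31), KDM2A (-0.28), KDM5B (-0.26) and DNMT1 (-0.20). The higher ones were SETDB2 (0.47), HDAC7 (0.38) and KDM4C (0.23).

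Another way of centring, chosen after seeing the data, first expressed each neighbour relative to its own mean over the 6 samples. By it EZH2 was not called (-0.15, adjusted p 0.0531), while SETD4 and EZH1 were higher than their neighbours (0.31 and 0.33). The calls of HDAC11, HDAC6, HDAC10, KDM3A and SIRT5 as higher, and of DNMT3A, TET3, SETD5 and KDM7A as not called, were the same in both calculations, as were the 7 falls named above. Among those falls the value was smaller by over 1.5 times for SETD7 (-0.43), PRMT1 (-0.35) and KDM1B (-0.24). Of the falls as deposited, TET2, PRMT3, HDAC2 and KDM1A were lower than their neighbours by this calculation alone. Among genes not called as deposited, KDM5C (-0.36 by this calculation), KDM5B and KDM2A were lower and SETDB2 and HDAC7 higher in both calculations. PRMT2 and SETD1A were lower, and HDAC3 and SETDB1 higher, by this calculation alone.

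**Figure D3:**
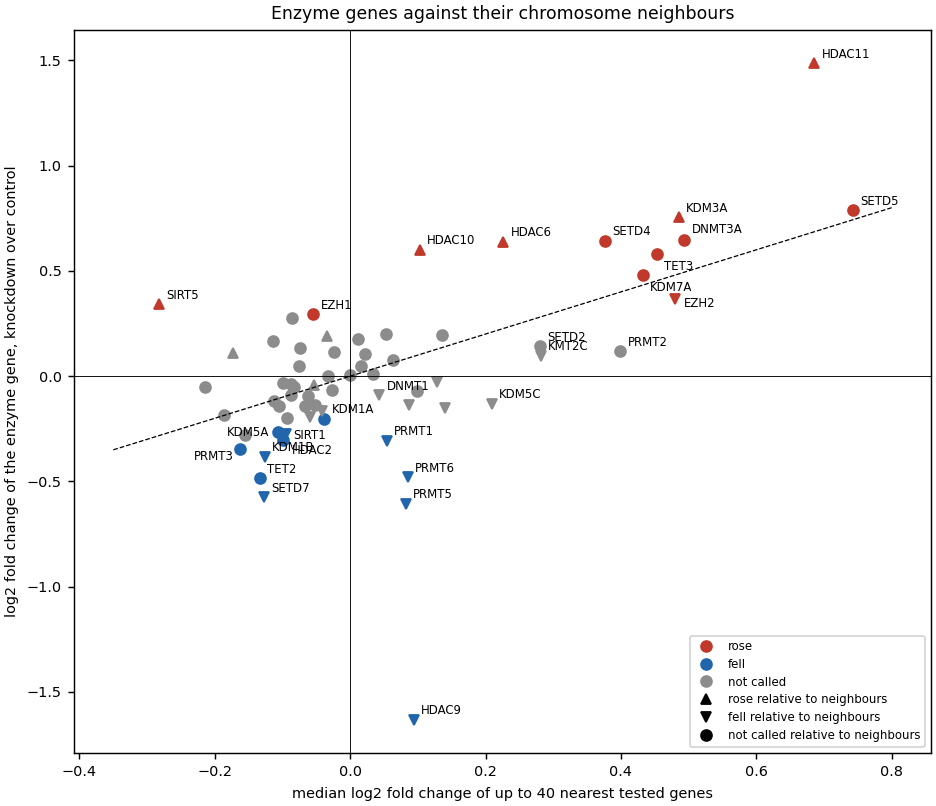
Log2 fold change of each enzyme gene (vertical axis) against the median log2 fold change of up to 40 nearest tested genes (horizontal axis), knockdown over control; the dashed line marks equal values, and the marker shape gives the call after subtraction of the neighbours' median level, a different quantity from the horizontal axis. SETD5, DNMT3A, TET3, KDM7A and EZH2 lie near the line at the right, HDAC11 lies far above it, and PRMT5 and HDAC9 lie far below.

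Ratios of related enzymes within a sample do not depend on how libraries are scaled, and 14 pairs were compared. The log2 ratio of TET3 to TET2 was 1.98, 2.14 and 2.09 in the knockdown samples, against 0.91, 1.11 and 1.004 in the control samples, a difference of 1.07. The ratio of KDM3A to its paralogue KDM3B was -0.96, -1.06 and -1.06 after knockdown and -1.92, -1.95 and -1.76 in controls, a difference of 0.85. Neither ratio overlapped between groups. The balance of the de novo methyltransferases, DNMT3B over DNMT3A, was -0.56, -0.51 and -0.36 in the knockdown samples and 0.33, 0.14 and 0.32 in the control samples. The sign of this ratio differed between every knockdown and every control sample. It is a ratio of reads, not of transcript numbers, since the genes differ in length. TET3, KDM3A and DNMT3A lie in the chromosome 2 stretch, where their neighbours had median log2 fold changes of 0.45, 0.49 and 0.49. The part of that stretch in these ratios, and in that of DNMT1 to DNMT3A, was not tested.

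The log2 ratio of DNMT1 to DNMT3A averaged 2.75 ± 0.206 in the knockdown samples and 3.49 ± 0.140 in the control samples (SD, n = 3 each). The ratio of HDAC2 to HDAC1 was 0.10, -0.01 and -0.11 after knockdown and 0.23, 0.30 and 0.39 in controls. Neither overlapped between groups. In all, 7 of the 14 pairs did not overlap, the others being KDM1B over KDM1A (a difference of -0.18) and KDM5B over KDM5A (0.12). Of all single genes tested, 51% did not overlap between groups, and the share for ratios of other genes was not computed. For each of the 7 the exact two-sided permutation test gave p = 0.1, the lowest value possible with 3 samples a group, or 0.2 after adjustment over the pairs, so no pair could pass the threshold in this design. The log2 ratio of EZH2 to EZH1 averaged 1.51 after knockdown and 1.44 in controls, with overlap (difference 0.07, exact permutation p = 0.7).

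**Figure D4:**
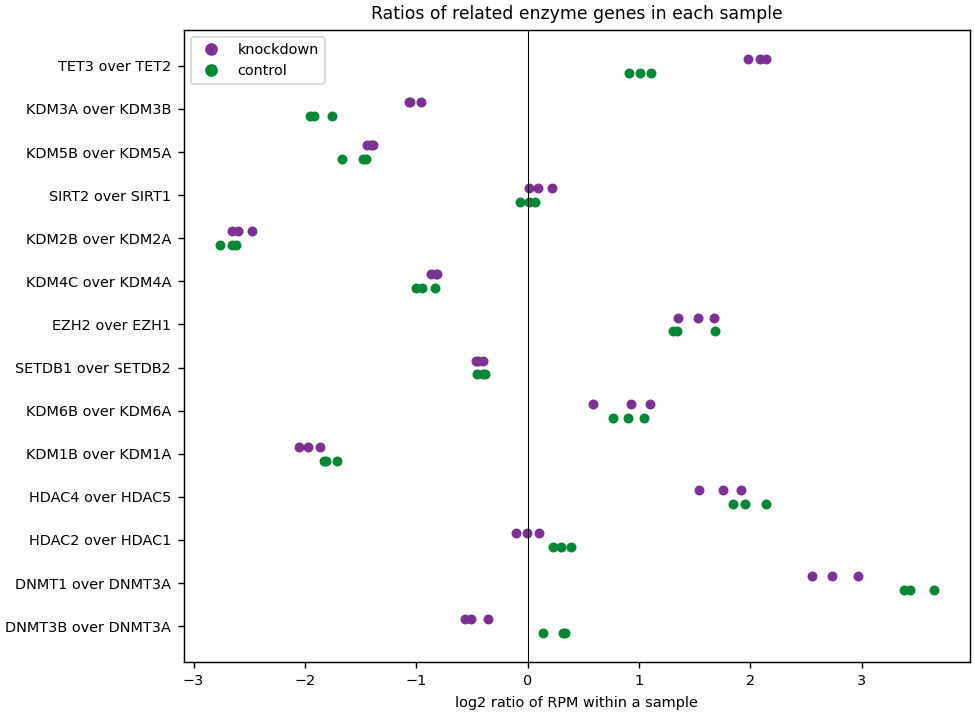
Log2 ratio of the RPM of 14 pairs of related enzyme genes in each knockdown sample (purple, upper points) and each control sample (green, lower points). The points of TET3 over TET2 and KDM3A over KDM3B lie farther right after knockdown, those of DNMT3B over DNMT3A and DNMT1 over DNMT3A farther left, and those of EZH2 over EZH1 overlap.

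Related genes outside the symbols chosen here, of complexes, other enzymes and methyl donor supply, were called in a share close to that of all genes tested. Of 176 tested in 11 lists, 28 rose and 46 fell, or 42.0% against 41.8%, with a median log2 fold change of -0.10. Falls outnumbered rises in the lists, whereas 22.6% of all genes tested rose and 19.2% fell. Among 21 subunits of Polycomb repressive complex 1, which ubiquitylates H2A, 6 rose and 2 fell, with CBX7 at 0.55, CBX8 at 0.51 and BMI1 at -0.41. Of 24 genes of histone acetyltransferases and subunits of their complexes, 5 rose and 5 fell. TADA3 (0.83), BRPF1 (0.67) and KAT2B (1.15), which had the smallest adjusted p, all lie on chromosome 3. The falls were EP300 (-0.26), CREBBP (-0.32), KAT5 (-0.27), KAT6A (-0.35) and GTF3C4 (-0.41), and the other rises were NCOA1 (0.28) and ING3 (0.48). Of 36 genes of deacetylase co-repressor complexes, 4 rose and 8 fell. They include RCOR1, the CoREST scaffold that holds KDM1A with HDAC1 and HDAC2, at 43.4, 43.7 and 49.6 RPM in the knockdown samples, against 62.6, 68.2 and 62.0 RPM in the control samples (log2 fold change -0.50, adjusted p 3.16e-05). TBL1X of the NCoR complex fell by 0.59 and ING1 of the SIN3 complex rose by 0.51.

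Of 10 genes of methyl donor supply, which makes the S-adenosylmethionine used by all methyltransferases, 3 rose and 3 fell. MAT2A, the enzyme that makes S-adenosylmethionine in these cells, lies on chromosome 2 and rose by 0.38. MTHFD1 of the folate cycle fell by 0.40. AHCYL2, a homologue of the enzyme that clears S-adenosylhomocysteine, lies on chromosome 7 and rose by 0.66. Both chromosomes hold a stretch where most genes rose, and its part in the rises of MAT2A and AHCYL2 was not tested. Of 15 genes listed as other lysine methyltransferases, KMT5C rose (0.59) and NSD1 (-0.35) and PRDM2 (-0.24) fell. The 15 include the arginine methyltransferase CARM1, which was not called. Of 8 other JmjC proteins, 3 rose and 3 fell, with HR, the hairless co-repressor, among the rises (1.11) and the ribosomal oxygenases RIOX2 (-0.51) and RIOX1 (-0.43) among the falls.

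**Figure D5:**
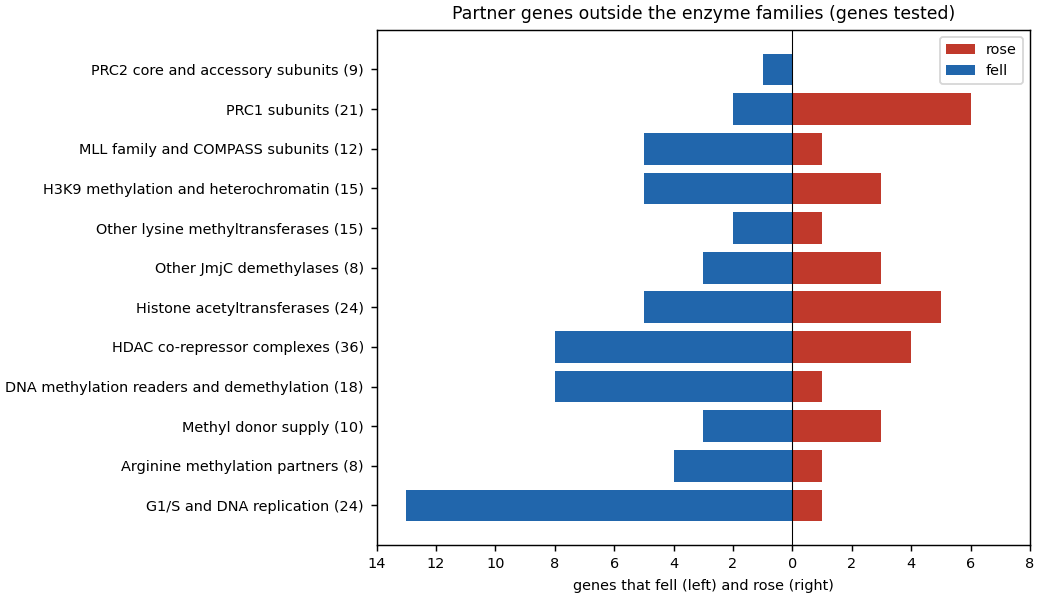
Number of tested genes that fell (blue, left) and rose (red, right) in each list of partner genes, with the number tested in parentheses. The G1/S list has 13 falls and 1 rise, and the lists of deacetylase co-repressors and of DNA methylation readers have 8 falls each.

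Most calls did not rest on a single library or setting. Of the 24 enzyme genes called, 19 kept their call in every alternative on the deposited scale that tested them, 10 of them rises and 9 falls. There were 18 alternatives, of which HDAC9 was tested in 17, since a stricter filter left it out. The 5 that lost it in some were KDM1A, KDM5A, EZH1, SIRT1 and SIRT5. Some genes not called as deposited were called in alternatives. KMT2B, SETDB2 and SIRT7 were called as rises, and SETD3, SETD8 and HDAC4 as falls, with median-of-ratios or TMM scaling, for example. Control replicate 6 held the lowest of the 3 control values for 51 of 66 enzyme genes, and for 69.02% of all genes tested. Without it, 10 enzyme genes rose and 20 fell. With libraries scaled to listed genes other than those of mitochondrial DNA, 20 rose and 12 fell, so the share of rises among the calls was 62.5%, against 50% as deposited.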

How the data were processed

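The deposited table gives, per gene and sample, a log2 value of RPM to which 1e-04 was added. This scale is inferred, since every column has its floor at that value. Partek, Bowtie and the build hg38 are named, per the submitters' processing notes, without versions. Genes on chromosome 1 reach 249214146 in the table, beyond the GRCh38 chromosome, so positions are given as listed with no build. The sources used here do not give the gene models, the counting or its use of strand. The authors' RPM values came from libraries described in the labels as strand-specific. Depth was read from the step between low values, the worth of 1 read, and 76.9% to 78.2% of the low values were whole reads to within 0.02. That share is too low for counts to be recovered, so no count model was run. The listed genes held 65.1% to 71.1% of the depth, and 271 to 618 symbols had no read in a sample.

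A symbol at several loci, as for 1192 symbols, had identical values and was used once. Genes averaging 0.688 RPM or more, or 1 RPM on the scale of reads in listed genes, were tested with limma 3.58.1 in R 4.3.3 (lmFit, eBayes with a trend, two-sided, 3 against 3 samples, no covariates). Benjamini-Hochberg adjustment ran over all genes tested, with a threshold of 0.05. The floor of 3 reads covers counting error only. SE values come from the limma fit and SD values from the 3 samples of a group. Local centring used up to 20 tested genes on each side, enzymes left out. Ratios were tested with exact permutation tests. Exon lengths came from GENCODE 29, not from the gene models of the table. Each is the union of all exons listed for a gene, not the length of the transcript in these cells. Promoter windows came from RefSeq (GRCh38.p14), 2 of them under newer symbols. Scripts were tested on simulated data. Figures were drawn with matplotlib 3.10.9.

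The enzyme genes and the partner lists were chosen with earlier results of these data known. The rule for values in every sample takes the 10 largest rises and falls, the gene of each role with the most reads and 12 genes fixed by name. Of each partner list it takes up to 3 with the smallest adjusted p. EED, SUZ12, UHRF1, CLNS1A, RIOK1, CARM1, the other called acetyltransferase genes and the genes named as overlapping were added beside it. The alternatives changed the filter, the pseudocount, the scaling, the variance model and the samples used.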

Additional observations from a re-analysis of the deposited data

How the results depend on the processing

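Depth limits the lowest genes most, since HDAC9, KDM8, KDM4D and TET1 have under 85 reads in each sample. Of the 24 enzyme genes called, 19 kept their call and direction in every alternative that tested them (18, or 17 for HDAC9), and no called gene reversed in any of these. The other 5 all lost the call without the trend in eBayes (adjusted p 0.0604 to 0.203, limma). The number that fell was 20 with TMM scaling and 20 with limma's arrayWeights, against 12 as deposited, and the number that rose was 20 with scaling to listed genes without mitochondrially encoded genes, against 12. The cause of these differences was not tested. Leaving out 1 replicate at a time gave 21 to 30 enzyme genes called, 10 to 13 that rose and 9 to 20 that fell, and the 20 falls came without control replicate 6. The scalings moved the median of all genes by at most 0.053 on the log2 scale. After local centring the leave-one-out range was 19 to 24 called, 6 to 9 higher and 13 to 18 lower. With 10 neighbours on each side 31 were called, 11 higher and 20 lower, and with 40 on each side 30 were called, 10 higher and 20 lower. Centring the neighbours on their own means first, added after seeing the data, gave 11 higher and 16 lower. With the replicate number as a block, 21 enzyme genes were called, 11 rose and 10 fell, and after local centring 23 were called. The deviations of samples with the same number from their group means correlated at -0.05, -0.06 and -0.13. Shifts of whole libraries enter these values. Control replicate 6 was lowest of its group for 69.02% of genes tested, and knockdown replicate 6 was highest of its group for 51.4%. The correlations thus cannot show whether samples with the same number shared a culture or batch. The ratios of related enzymes kept their direction with pseudocounts of 0.1 and 1 RPM.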
